A study of Mus musculus with 18 samples.

Results

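The early response of plasmacytoid dendritic cells (pDCs) to imiquimod was read from 6 of the 18 libraries of the series, by setting imiquimod at 6 h against the vehicle at 6 h over every gene of the count table. The imiquimod group held 3 libraries of pDCs given imiquimod at 2.5 µg/mL for 6 h, and the vehicle group held 3 libraries of pDCs given LAL for the same time. The series text expands LAL as Limulus amebocyte lysate, and the labels do not say in what form it was added. Cells of both groups were differentiated in culture from the marrow of wild-type C57BL/6 mice with Flt3 ligand (80 ng/mL, 7 days) and then enriched on B220 beads, with a stated routine purity of 80%. The labels describe neither the remaining cells nor the origin of replicates. Nothing in them ties replicate libraries to different mice or dishes, so the p-values rest on a spread that may be technical. Of 54532 genes in the table, 14876 passed the expression filter and were tested, and the same groups at 16 h served to ask which 6 h changes were early.

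Imiquimod is a small synthetic agonist of Toll-like receptor 7 (TLR7), an endosomal receptor of single-stranded RNA that pDCs carry. The receptor signals through the adaptor MyD88 to kinases of the IRAK, TAK and IKK families. These activate the transcription factors NF-kappaB and AP-1, which drive cytokine genes, and interferon regulatory factors, which drive interferon and antiviral genes. Secreted interferon then acts back on the cells through JAK kinases and STAT factors, and inhibitors such as the SOCS proteins and MAP kinase phosphatases are induced as brakes.

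Total counts ran from 11673965 to 12576527 over the 6 libraries and from 10609741 to 13447018 over all 18. Of the defining pDC markers, the lectin gene Siglech averaged 299 CPM (counts scaled to the TMM-adjusted size of each library) with imiquimod and 1154 CPM with vehicle, and Bst2 averaged 451 CPM with imiquimod and 248 CPM with vehicle, so defining markers of the labelled cell type were present in both groups. Summed over 19 pDC markers the level was 7317 to 7593 CPM with imiquimod and 8957 to 9273 CPM with vehicle. Of these 19 markers 11 were lower, 10 of them at least 2-fold, and 8 were higher, 1 of them at least 2-fold. Their median log2 fold change was -1.02. Over all genes tested 19.3% were at least 2-fold lower and 16.2% at least 2-fold higher. Markers of other cells were also present. The 10 markers of cDC1 cells, the cross-presenting dendritic cells, summed to 574 to 605 CPM with imiquimod and 1514 to 1537 CPM with vehicle, and all 10 were lower. The 10 markers of cDC2 cells summed to 191 to 199 CPM with imiquimod and 395 to 418 CPM with vehicle. Those of B cells (11 genes) summed to 1263 to 1352 CPM with imiquimod and 940 to 1035 CPM with vehicle, most of it from the immunoglobulin gene Ighm. Of the 9 B cell markers tested, 4 were called higher and 5 lower, with a median log2 fold change of -0.37. T and NK cell markers (12 genes) summed to 3.33 to 4.84 CPM with imiquimod and 0.778 to 1.15 CPM with vehicle, neutrophil markers (11 genes) to 2.13 to 4.02 CPM with imiquimod and 4.78 to 6.57 CPM with vehicle, and erythroid markers (9 genes) to 0.686 to 1.45 CPM with imiquimod and 1.23 to 1.71 CPM with vehicle. Basophil and mast cell markers (9 genes) summed to 82.1 to 92.7 CPM with imiquimod and 118 to 124 CPM with vehicle. In such bulk samples, fewer cells of a type and less RNA per cell cannot be told apart.

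Imiquimod moved most of the transcriptome within 6 h. A gene is called here at a Benjamini-Hochberg adjusted p under 0.05 in edgeR's quasi-likelihood test over all 14876 genes, and 76.9% were called, 5602 (37.7%) higher and 5837 (39.2%) lower. In 11396 genes (76.6%) the 3 imiquimod libraries lay all on the same side of the 3 vehicle libraries. A change of at least 2-fold was called in 5275 genes (35.5%), with 2408 higher (16.2%) and 2867 lower (19.3%). At 4-fold the numbers were equal, 1104 higher and 1104 lower, whereas at 16-fold 400 were higher and 190 lower and at 64-fold 156 were higher and 39 lower. The direction also went with the level of the gene, taken as its mean over the same 6 libraries. A raised gene is placed higher by its own rise and a lowered gene lower by its fall, so level and change are not independent here. Among genes of at least 100 CPM, 26.4% were at least 2-fold higher and 7.71% at least 2-fold lower, and among genes under 1 CPM 16.8% were higher and 34.4% lower.

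**Figure D1:**
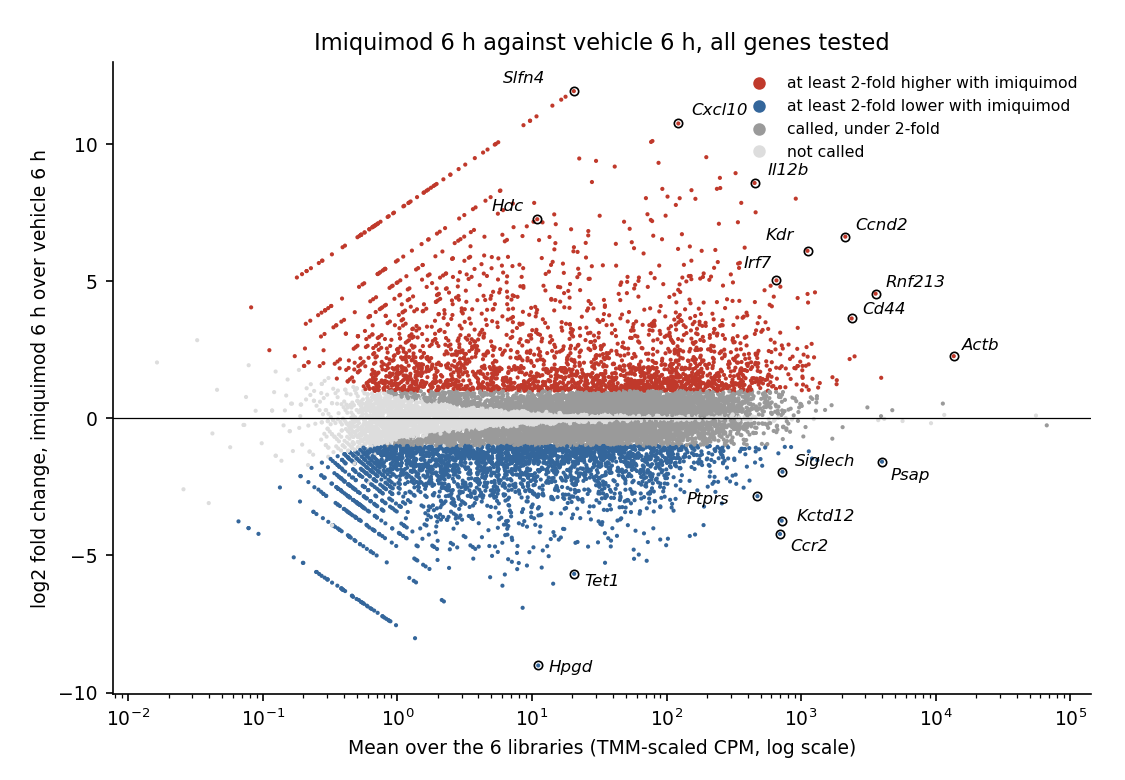
Each point is a gene, placed by its mean TMM-scaled CPM over the 6 libraries (x axis, log scale) and its log2 fold change, imiquimod 6 h over vehicle 6 h (y axis). Red points were called and at least 2-fold higher (2408 genes), blue points called and at least 2-fold lower (2867), grey points called with a smaller change or not called. The straight lines of points at low CPM are genes with 0 or few counts in a group, whose fitted fold is no bound. Ccnd2, Rnf213 and Actb stand out among abundant genes above 0, and Psap and Ccr2 below it.

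The changes altered the make-up of the libraries. Genes at least 2-fold higher took 33.5% to 33.7% of all counts in the imiquimod libraries, against 10.5% to 10.6% in the vehicle libraries, and genes at least 2-fold lower took 3.30% to 3.34% with imiquimod, against 13.3% to 13.5% with vehicle. The scaling therefore matters. TMM set the imiquimod libraries at factors of 0.817 to 0.837 and the vehicle libraries at 1.04 to 1.07. With library totals alone every fold change shifted by about -0.35 (log2), 3704 genes were higher and 8222 lower, and 31.1% of calls were higher in place of 49.0%. At least 2-fold higher were then 1747 genes and at least 2-fold lower 4026. Medians of gene lists, of log2 fold changes, are to be read beside the median over all genes tested, -0.04 under TMM. List medians between 0 and 0.35 change sign under library totals, and for those lists no direction is given.

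The largest gains in reads at 6 h included genes of actin, a cyclin, chaperones and surface receptors. The 10 genes with the largest gain in mean CPM together took 5.73% to 5.77% of counts with imiquimod and 1.90% to 1.98% with vehicle. CPM values are per library and not per length, so that they rank reads and not molecules. Actb (chr5:142903115-142906754, mm10, minus strand), the beta-actin gene often used as a reference transcript, had 21858, 22785 and 23050 CPM with imiquimod, against 4406, 4736 and 4925 CPM with vehicle, a log2 fold change of 2.27 (SE 0.04, edgeR adjusted p = 1.2e-65). Ccnd2 (chr6:127125162-127152193), a D-type cyclin gene of G1 phase, had 4098, 4246 and 4313 CPM with imiquimod, against 38, 43.6 and 47 CPM with vehicle, and stood at 128 CPM in the vehicle at 0 h. In edgeR the log2 fold change was 6.62 (SE 0.05, adjusted p = 1.44e-90). Kdr, which encodes the vascular endothelial growth factor receptor 2, had 2116, 2267 and 2214 CPM with imiquimod, against 30.3, 29.8 and 35.7 CPM with vehicle (6.11, SE 0.05, edgeR adjusted p = 1.56e-78). For each of these genes the imiquimod libraries lay above the vehicle libraries, which the rule that named them required.

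Rnf213, a giant E3 ubiquitin ligase gene, had 6697, 6827 and 7057 CPM with imiquimod, against 273, 298 and 311 CPM with vehicle (log2 fold change 4.54). Parp14, a mono-ADP-ribosyltransferase gene, had 2389, 2449 and 2467 CPM with imiquimod, against 99.9, 96.0 and 107 CPM with vehicle (4.59). Cd44, the hyaluronan receptor gene, had 4225, 4471 and 4498 CPM with imiquimod, against 366, 330 and 363 CPM with vehicle (3.64), after 838 CPM in the vehicle at 0 h. Among the remaining gains were the chaperone genes Hspa8 (2.26) and Hsp90ab1 (2.16), the class II invariant chain gene Cd74 (1.48) and the nuclear noncoding RNA Malat1 (0.54). Of Hspa8's 75-base windows 32.8% are shared with transcripts of other genes, so its reads are uncertain in their division.

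The 10 genes with the largest loss in mean CPM had varied roles. Psap, the precursor gene of the saposins that help lysosomal enzymes degrade sphingolipids, had 1952, 2036 and 2010 CPM with imiquimod, against 5388, 6406 and 6158 CPM with vehicle, a log2 fold change of -1.58 (SE 0.04, edgeR adjusted p = 8.7e-35). Ccr2, a chemokine receptor gene, fell to 71.1, 68.3 and 73.8 CPM with imiquimod, against 1367, 1227 and 1375 CPM with vehicle (-4.22, SE 0.04, edgeR adjusted p = 2.67e-78). Ptprs, a receptor tyrosine phosphatase gene, fell to 115, 111 and 122 CPM with imiquimod, against 830, 843 and 821 CPM with vehicle (-2.84), and the ubiquitin ligase gene Cbl to 681, 689 and 701 CPM with imiquimod, against 1531, 1612 and 1630 CPM with vehicle (-1.20). That the groups do not overlap for these 10 genes was a condition of naming them, and 76.6% of all genes tested meet it. Macf1, a cross-linker of microtubules and actin, changed by -1.47, the splicing regulator gene Mbnl1 by -1.53, the translation elongation factor gene Eef2 by -0.74 and the protease gene Ctsb by -1.05. Kctd12, an auxiliary subunit gene of GABA-B receptors, changed by -3.73, but 62.8% of its exons overlap a gene on the other strand and the strand setting of the counting is not given. Ccr2 is also on the list of monocyte and macrophage markers, 13 genes that summed to 220 to 227 CPM with imiquimod and 1623 to 1758 CPM with vehicle. Ccr2 itself made up most of the vehicle sum, with a mean of 71.1 CPM with imiquimod and 1323 CPM with vehicle. Of the other members, Csf1r changed by -2.49, Lyz2 by -2.39, Apoe by -0.76 and Adgre1 by -0.61. Upward, Cd14 changed by 1.16, C1qb by 1.10, Cx3cr1 by 0.38 and the Fc receptor gene Fcgr1 by 5.47. The part of such cells in the fall of Ccr2 was not tested.

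**Figure D2:**
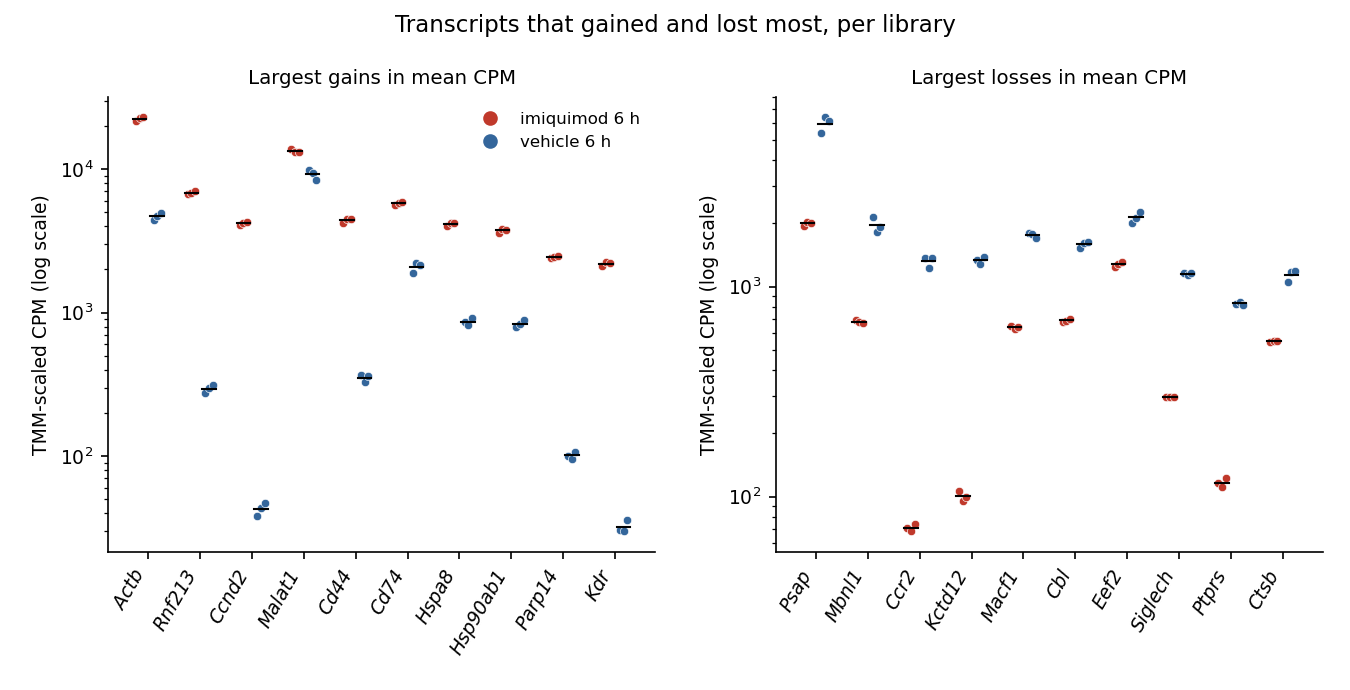
TMM-scaled CPM per library (y axis, log scale) for the 10 genes with the largest gain and the 10 with the largest loss in mean CPM. Red points are the 3 imiquimod 6 h libraries, blue points the 3 vehicle 6 h libraries, and black bars the group means. The groups are apart for all 20 genes, from Malat1 (log2 fold change 0.54) to Ccnd2 (6.62) among gains and from Eef2 (-0.74) to Ccr2 (-4.22) among losses.

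The route from TLR7 to the nucleus was changed gene by gene and not as a block. Of 39 genes of TLR7 trafficking and signal relay, 9 were at least 2-fold higher (23.1%) and 6 at least 2-fold lower (15.4%), near the shares over all genes (16.2% and 19.3%), with a median of 0.24. Tlr7 itself had 383, 426 and 415 CPM with imiquimod, against 187, 159 and 197 CPM with vehicle (1.18), and the adaptor gene Myd88 had 142, 147 and 142 CPM with imiquimod, against 61.7, 65.5 and 61.4 CPM with vehicle (1.19). Unc93b1, the chaperone gene that brings TLR7 to the endosome, was not called (-0.05), but was called lower under library totals (-0.40), with no expression filter (-0.09) and without vehicle replicate 1 (-0.12). Slc15a4, an endolysosomal transporter gene needed for TLR7 signalling in pDCs, was lower (-0.33). Lgmn, the endopeptidase gene whose product cleaves endosomal Toll-like receptors, rose to 463, 431 and 460 CPM with imiquimod, against 80.1, 96.6 and 92.9 CPM with vehicle (2.33, SE 0.04, edgeR adjusted p = 2.94e-54). The kinase genes Ikbke (2.05), Map3k8 (1.95) and Irak2 (1.00) were higher, as were Traf3 (0.71) and the ubiquitin ligase gene Peli1 (1.57).

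The related Peli2 went the other way, with 2.25, 4.55 and 3.34 CPM with imiquimod, against 73.1, 67.1 and 70.8 CPM with vehicle, a log2 fold change of -4.37 (SE 0.10, edgeR adjusted p = 5.81e-48). Map2k6, the gene of a kinase that activates p38 MAP kinases, had 0.294, 0 and 0.196 CPM with imiquimod, against 11.6, 11.9 and 12.2 CPM with vehicle (-6.10, SE 0.31), and Rab7b, a late endosomal GTPase gene, changed by -2.11. The imiquimod libraries lay below the vehicle libraries for these 3 genes, as for many others, since 76.6% of all genes tested had groups that did not overlap. Peli2, Map2k6, Lgmn and Rab7b follow the rule for named genes, and the other relay genes were named after their values were seen.

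All 8 interferon regulatory factor genes tested were called, 6 higher and 2 lower, where 76.9% of all genes were called, so that the count is near the background and the sizes tell more. Irf7, the factor gene on which interferon alpha production in pDCs depends, had 1222, 1292 and 1304 CPM with imiquimod, against 37.3, 38.6 and 41.3 CPM with vehicle, a log2 fold change of 5.03 (SE 0.09, edgeR adjusted p = 1.65e-15). Irf5, which acts below TLR7 in cytokine induction, had 338, 360 and 359 CPM with imiquimod, against 156, 153 and 154 CPM with vehicle (1.19), although 14.2% of its exons overlap a gene on the other strand. Irf9, the DNA-binding partner gene of STAT factors, changed by 1.34, Irf1 by 0.97 and Irf4 by 0.70. Irf4 was at 201, 202 and 202 CPM with imiquimod, against 123, 127 and 122 CPM with vehicle, and at 268 CPM in the vehicle at 0 h. Irf2 changed by 0.28, or by -0.07 under library totals. Irf8, a lineage factor gene of dendritic cells, was lower at 1760, 1830 and 1832 CPM with imiquimod, against 2180, 2319 and 2285 CPM with vehicle (-0.32, SE 0.03, edgeR adjusted p = 1.7e-15). Irf3 was barely lower (-0.15, edgeR adjusted p = 0.0143), a call lost without imiquimod replicate 3 (adjusted p = 0.0744) and in DESeq2 (0.0886).

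**Figure D3:**
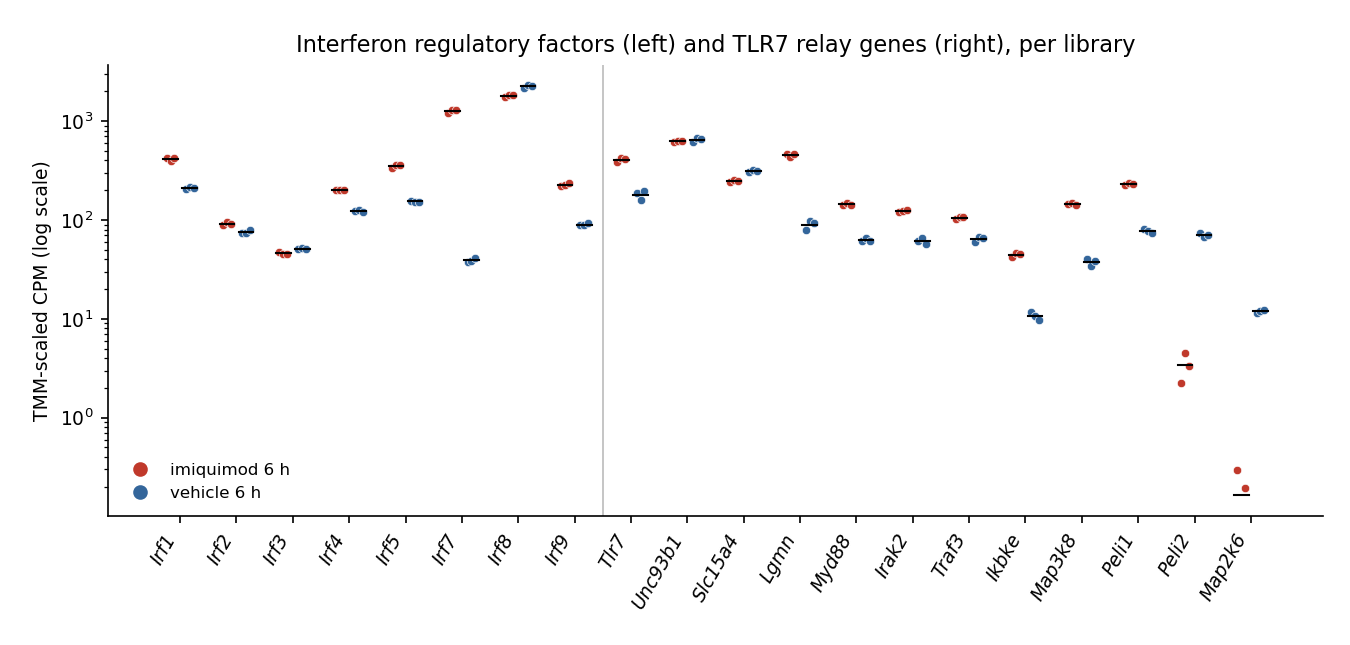
TMM-scaled CPM per library (y axis, log scale) for the 8 interferon regulatory factor genes tested (left of the line) and 12 genes of the TLR7 relay (right). Red points are imiquimod 6 h, blue points vehicle 6 h, black bars the means of 3 libraries, and the imiquimod library of Map2k6 at 0 CPM cannot be drawn on the log scale. Irf7 shows the widest upward gap (log2 fold change 5.03), and Map2k6 (-6.10) and Peli2 (-4.37) the widest downward gaps.

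Genes of NF-kappaB subunits, of IkappaB proteins and of AP-1 factors, taken as a single list, were mostly higher. Of 24 tested, 19 were called higher and 2 lower, against 37.7% higher and 39.2% lower over all genes, and 17 were at least 2-fold higher (70.8%) and 0 at least 2-fold lower, with a median of 2.12. Nfkbiz, which encodes the nuclear inhibitor-like cofactor IkappaB-zeta, had 1209, 1172 and 1211 CPM with imiquimod, against 57.2, 55.6 and 53.2 CPM with vehicle (4.44, SE 0.04, edgeR adjusted p = 6.05e-83). Jun had 439, 440 and 470 CPM with imiquimod, against 25.2, 22.8 and 23.5 CPM with vehicle (4.24), and 71.7 CPM in the vehicle at 0 h. Batf, an AP-1 partner gene of lymphoid and dendritic cells, had 196, 200 and 206 CPM with imiquimod, against 11.2, 7.56 and 9.27 CPM with vehicle (4.42). Batf2 was higher from very low levels (4.48), while Batf3, a lineage factor gene of cDC1 cells, had 2.94, 3.49 and 3.63 CPM with imiquimod, against 6.61, 6.02 and 5.83 CPM with vehicle (-0.87), beside the lower cDC1 markers given above.

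Genes of interferon signalling and of cytosolic RNA and DNA sensing were raised together with their inhibitors. Of 27 interferon receptor, JAK, STAT and SOCS genes, 13 were at least 2-fold higher (48.1%) and 2 at least 2-fold lower (7.41%), with a median of 0.97. Cish, a SOCS family inhibitor gene, had 43.2, 43.0 and 42.8 CPM with imiquimod, against 0.544, 0.694 and 0.657 CPM with vehicle (6.07, SE 0.15, edgeR adjusted p = 1.48e-51). Usp18, whose product removes ISG15 and dampens the type I interferon receptor, had 473, 483 and 459 CPM with imiquimod, against 9.18, 8.95 and 9.11 CPM with vehicle (5.70), and Socs1 changed by 4.01. The lowered members included Ifngr1, a receptor chain gene for interferon gamma, with 22.1, 22.7 and 23.4 CPM with imiquimod, against 133, 124 and 143 CPM with vehicle (-2.55, SE 0.06, edgeR adjusted p = 3.12e-54). Socs5 changed by -1.0.

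Of 23 cytosolic nucleic acid sensor genes, 16 were at least 2-fold higher (69.6%) and 3 at least 2-fold lower (13%), with a median of 3.61. Zbp1, a sensor gene for Z-form nucleic acids, had 317, 331 and 332 CPM with imiquimod, against 1.09, 1.16 and 1.56 CPM with vehicle (8.0, SE 0.09, edgeR adjusted p = 2.35e-77). Ifi204, a DNA sensor gene of the Ifi200 cluster, changed by 8.37, with 13.2% of its windows shared with other genes, and Oasl2 by 7.15.

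The promoters of the most induced genes are shown because their letters can be set beside the values of the factors just described. They run from 250 bases before to 50 after the start of the gene, are RefSeq sequences of GRCm38.p6 (the assembly of mm10), read 5′ to 3′ on the gene's strand, and have in capitals each match to an interferon-stimulated response element (ISRE, GAAA and GAAA with any 2 bases between) or to an NF-kappaB motif (GGG and TTCC with any 3 bases between), searched on both strands. Siglech is shown as a lowered gene with neither match. Cxcl10 lies at chr5:92348840-92349139 (minus strand), Il6 at chr5:30012864-30013163 (plus), Isg15 at chr4:156200769-156201068 (minus), Rsad2 at chr12:26456403-26456702 (minus) and Siglech at chr7:55767934-55768233 (plus).
Cxcl10: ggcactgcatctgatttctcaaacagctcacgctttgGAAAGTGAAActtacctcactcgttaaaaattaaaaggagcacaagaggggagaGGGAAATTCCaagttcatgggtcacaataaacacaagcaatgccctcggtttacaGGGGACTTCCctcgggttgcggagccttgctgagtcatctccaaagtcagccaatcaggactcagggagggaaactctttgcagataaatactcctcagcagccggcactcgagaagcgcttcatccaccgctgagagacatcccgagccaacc
Il6: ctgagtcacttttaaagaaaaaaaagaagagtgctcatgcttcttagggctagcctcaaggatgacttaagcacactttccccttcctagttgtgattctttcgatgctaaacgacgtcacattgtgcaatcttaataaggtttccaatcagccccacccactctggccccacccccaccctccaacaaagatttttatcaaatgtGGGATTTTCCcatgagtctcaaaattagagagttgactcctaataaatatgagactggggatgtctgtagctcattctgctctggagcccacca
Isg15: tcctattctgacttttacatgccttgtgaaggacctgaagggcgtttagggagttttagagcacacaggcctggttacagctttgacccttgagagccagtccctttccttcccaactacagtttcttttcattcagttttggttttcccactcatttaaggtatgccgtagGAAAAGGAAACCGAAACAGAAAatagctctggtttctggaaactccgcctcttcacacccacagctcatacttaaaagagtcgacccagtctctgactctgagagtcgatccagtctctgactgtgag
Rsad2: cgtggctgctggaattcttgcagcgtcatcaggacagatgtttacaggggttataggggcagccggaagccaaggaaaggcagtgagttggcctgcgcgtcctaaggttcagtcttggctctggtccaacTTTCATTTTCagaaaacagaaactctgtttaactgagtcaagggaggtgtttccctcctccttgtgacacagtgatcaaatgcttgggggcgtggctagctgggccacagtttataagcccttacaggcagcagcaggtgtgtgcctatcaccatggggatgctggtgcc
Siglech: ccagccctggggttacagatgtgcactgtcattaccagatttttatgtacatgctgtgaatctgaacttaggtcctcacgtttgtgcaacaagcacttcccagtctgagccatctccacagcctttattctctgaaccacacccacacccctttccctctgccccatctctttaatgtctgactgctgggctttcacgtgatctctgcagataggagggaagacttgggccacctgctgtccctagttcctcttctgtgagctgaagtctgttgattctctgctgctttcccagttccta

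Counted from the start at 0, the first base of the match was at -213 for the ISRE and at -159 and -104 for NF-kappaB in Cxcl10, a chemokine gene that had 235, 249 and 249 CPM with imiquimod, against 0.156, 0 and 0.246 CPM with vehicle. In Il6 the NF-kappaB match was at -44, and the gene had 156, 146 and 159 CPM with imiquimod, against 0, 0.154 and 0.246 CPM with vehicle. Isg15, the gene of a ubiquitin-like modifier, held 3 overlapping ISRE matches at -78, -72 and -66 and had 488, 505 and 506 CPM with imiquimod, against 1.32, 1.39 and 1.72 CPM with vehicle. In Rsad2, the viperin gene, the ISRE match at -120 was on the other strand, and the gene had 636, 652 and 663 CPM with imiquimod, against 1.09, 1.54 and 1.31 CPM with vehicle.

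These letters were commoner in induced genes than in the rest, but most induced genes lacked them in this window. Of 311 promoters of genes at least 16-fold higher, 47 (15.1%) held an ISRE match, against 11 of 160 (6.88%) for genes at least 16-fold lower and 418 of 12464 (3.35%) for all genes tested. At 2-fold the shares were 6.68% of promoters of higher genes and 2.39% of those of lower genes, and over all 32851 promoters that RefSeq gave 3.44% held it. The NF-kappaB motif was in 12.9% of promoters at least 16-fold higher, 3.75% at least 16-fold lower and 6.47% of all tested, and the AP-1 motif (TGANTCA) in 14.1%, 8.12% and 5.09%, in the same order. For the E-box (CACGTG) the order was the reverse, 5.79% at 16-fold higher, 7.5% at 16-fold lower and 9.94% of all tested. Of the 16 genes with the largest folds upward, 15 had a RefSeq promoter, of which 6 held an ISRE match, 2 an NF-kappaB match and 8 neither. Of the 16 with the largest folds downward, 12 had a promoter and 10 held neither. A match is a description of letters, not of binding, and several promoters can belong to 1 gene.

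Brakes on MAP kinases and on mRNA lifetime changed in both directions. Of 19 MAP kinase phosphatase, Sprouty and Spred genes, 11 were at least 2-fold higher (57.9%) and 4 at least 2-fold lower (21.1%), with a median of 1.91, and in the vehicle alone their median change from 0 to 6 h was -1.16. Dusp2, a nuclear MAP kinase phosphatase gene, had 354, 352 and 368 CPM with imiquimod, against 20.4, 19.6 and 17.6 CPM with vehicle (4.22, SE 0.05, edgeR adjusted p = 8.37e-73), and Dusp8 changed by 5.27. Dusp6, whose product acts on ERK, had 3.04, 2.61 and 2.45 CPM with imiquimod, against 17.4, 15.7 and 15.8 CPM with vehicle (-2.59), and Spry2 changed by -3.54 while Spry4 changed by 4.37, from levels near 0. Among 33 mRNA decay regulators, 9 were at least 2-fold higher (27.3%) and 2 at least 2-fold lower (6.06%), with a median of 0.21. The Regnase family gene Zc3h12c had 948, 995 and 975 CPM with imiquimod, against 187, 173 and 173 CPM with vehicle (2.45), and its relative Zc3h12b changed by -2.90. Btg1, an antiproliferative cofactor gene of deadenylation, had 1403, 1503 and 1532 CPM with imiquimod, against 387 to 407 CPM with vehicle (1.90). Zfp36l2, whose product binds AU-rich elements, fell to 45.6, 46.9 and 49.2 CPM with imiquimod, against 296, 276 and 303 CPM with vehicle (-2.63).

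Among the largest folds were genes that were silent in one group. Flvcr2, a heme transporter family gene, was counted 287 times in the imiquimod group and 0 times in the vehicle group, at least 118-fold higher against a floor of 3 counts over the group. Likewise the gap junction gene Gjb2 (231 against 0) was at least 95.3-fold higher and the erythrocyte cytoskeleton gene Dmtn (196 against 0) at least 80.8-fold. Genes at 0 with imiquimod had fewer counts with vehicle. The leukotriene receptor gene Ltb4r1 had 0 counts with imiquimod and 74 with vehicle, at least 19.9-fold lower, the chemokine receptor gene Ccr3 0 against 59, at least 15.9-fold lower, and the Wnt antagonist gene Dkk3 0 against 61, at least 16.4-fold lower. These bounds cover counting error only.

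Among genes whose 6 libraries averaged 10 CPM or more, a level reached here through the vehicle libraries, the deepest falls included several genes of signalling and transcription. Il16, the precursor gene of a T cell chemoattractant, had 7.25, 7.74 and 8.15 CPM with imiquimod, against 188, 190 and 195 CPM with vehicle, a log2 fold change of -4.63 (SE 0.06, edgeR adjusted p = 1.33e-69), with 17.4% of its exons overlapped on the other strand. Mxd4, a gene of the MAD family that opposes MYC, had 4.22, 4.65 and 3.04 CPM with imiquimod, against 109, 111 and 110 CPM with vehicle (-4.79, SE 0.09, edgeR adjusted p = 2.57e-61). Map3k9, a mixed-lineage kinase gene, changed by -4.52, Cracr2a, a calcium-sensing Rab gene, by -4.54, Rnf150 by -4.68 and the adhesion receptor gene Adgra2 by -4.66. These genes were picked by their fold in the same libraries, so that their separation is a description.

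Surface receptor and adhesion genes changed in both directions. Of 27 inhibitory and ITAM-linked receptor and adaptor genes, 15 were called lower and 10 higher, while 4 were at least 2-fold higher (14.8%) and 11 at least 2-fold lower (40.7%), with a median of -0.51. Inpp5d, the phosphatase gene SHIP1 that limits receptor signals, had 120, 130 and 129 CPM with imiquimod, against 524, 532 and 521 CPM with vehicle (-2.05), and Cd200r1 changed by -2.08. The shared signalling chain gene Fcer1g had 176, 198 and 195 CPM with imiquimod, against 67.8, 61.2 and 69.9 CPM with vehicle (1.51). Among 32 integrin and adhesion genes, 12 were at least 2-fold higher (37.5%) and 8 at least 2-fold lower (25%), with a median of 0.20. The fibronectin receptor gene Itga5 had 229, 215 and 234 CPM with imiquimod, against 16.3, 19.2 and 16.9 CPM with vehicle (3.69). Itgb7, the integrin gene of gut homing, had 60.7, 61.5 and 64.4 CPM with imiquimod, against 358, 437 and 402 CPM with vehicle (-2.68), and the collagen receptor gene Itga1 changed by -3.26. The gut-homing chemokine receptor gene Ccr9 also fell, to 101, 118 and 113 CPM with imiquimod, against 666, 598 and 648 CPM with vehicle (-2.53).

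Of 28 chemokine and lipid receptor genes of cell migration, 8 were at least 2-fold higher (28.6%) and 15 at least 2-fold lower (53.6%), with a median of -1.16, the lowest of the 33 lists. Within this list C5ar1 had 0 counts with imiquimod and only 15 counts with vehicle, and Ccr4 and Fpr2 were higher from levels near 0. Actin cytoskeleton genes went up more often than down. Of 49, 17 were at least 2-fold higher (34.7%) and 4 at least 2-fold lower (8.16%), with a median of 0.48. The actin-bundling gene Fscn1, typical of mature dendritic cells, had 533, 535 and 542 CPM with imiquimod, against 25.7, 25.7 and 28.1 CPM with vehicle (4.34). Swap70, a phosphoinositide-binding actin regulator gene, had 1683, 1720 and 1736 CPM with imiquimod, against 166, 182 and 175 CPM with vehicle (3.30), and Marcksl1 changed by 4.02. The class I myosin gene Myo1f had 35.7, 38.6 and 33.8 CPM with imiquimod, against 219, 220 and 215 CPM with vehicle (-2.60).

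Ribosome biogenesis and proteasome genes were mostly higher, and ribosomal protein genes were more often lower. For comparison, 37.7% of all genes tested were called higher and 39.2% lower, 16.2% at least 2-fold higher and 19.3% at least 2-fold lower. Ribosome biogenesis genes were higher in 52 of 61 and lower in 3, with 22 at least 2-fold higher (36.1%), 0 at least 2-fold lower and a median of 0.82. Nop56, a box C/D snoRNP gene, had 157, 163 and 155 CPM with imiquimod, against 43.9, 49.0 and 45.1 CPM with vehicle (1.78). Cytosolic ribosomal protein genes were higher in 16 of 83 and lower in 44, with 1 at least 2-fold higher, 0 at least 2-fold lower and a median of -0.12. Proteasome subunit genes were higher in 40 of 42 and lower in 0, with 15 at least 2-fold higher (35.7%) and a median of 0.89. The core subunit gene Psma6 had 197, 206 and 207 CPM with imiquimod, against 53.5, 60.9 and 55.6 CPM with vehicle (1.84). The list of tRNA charging, serine and asparagine synthesis genes held other genes too, such as the stress factor gene Atf5 (2.54) and the mTOR inhibitor gene Ddit4 (-1.20). Of its 40 genes, 12 were at least 2-fold higher (30%) and 1, Ddit4, at least 2-fold lower (2.5%), with a median of 0.59. snoRNA host genes were at least 2-fold higher in 4 of 15 and lower in 1 (median 0.56), led by Snhg15 (2.58). Among 45 genes of ER translocation, glycosylation and COPII transport, 27 were higher and 9 lower, but only 2 at least 2-fold higher and 0 at least 2-fold lower (median 0.22). The COPII coat gene Sec23b had 168, 179 and 183 CPM with imiquimod, against 62.3, 60 and 58 CPM with vehicle (1.55).

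Metabolic genes split by transporter and pathway. Of 25 amino acid transporter genes, 12 were at least 2-fold higher (48%) and 5 at least 2-fold lower (20%), with a median of 0.79. The cationic amino acid transporter gene Slc7a3 had 18.9, 18.2 and 17.4 CPM with imiquimod, against 0.0778, 0.0771 and 0.246 CPM with vehicle (7.00, SE 0.26, edgeR adjusted p = 4.01e-39). Slc43a2, a carrier gene of large neutral amino acids, had 9.51, 9.20 and 9.23 CPM with imiquimod, against 185, 200 and 201 CPM with vehicle (-4.39, SE 0.06, edgeR adjusted p = 7.72e-69), and the glutamine carrier gene Slc38a1 changed by -2.09. Of 15 glucose, lactate and nucleoside transporter genes, 3 were at least 2-fold higher (20%) and 6 at least 2-fold lower (40%), with a median of -0.72. The lysosomal hexose transporter gene Slc2a6 had 439, 467 and 464 CPM with imiquimod, against 44.6, 46.2 and 41.4 CPM with vehicle (3.37). Over 196 solute carrier genes, 17.9% were at least 2-fold higher and 20.4% lower (median -0.19), close to all genes, with the glutamate transporter gene Slc1a2 at 28.6, 28.9 and 29.7 CPM with imiquimod, against 0.156, 0.231 and 0.0821 CPM with vehicle (7.43).

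Respiratory chain genes encoded in the nucleus changed little in size, with 1 of 77 at least 2-fold higher, 2 at least 2-fold lower and a median of 0.11. The list of TCA cycle genes also held Acod1, Acly and Pdk1. Of its 28 genes, 2 were at least 2-fold higher (7.14%), Acod1 and Acly, and 4 lower (14.3%), with a median of -0.06. Both shares were below those over all genes (16.2% and 19.3%). In that list Acod1, the gene of the enzyme that makes itaconate, had 14.2, 10.7 and 12.7 CPM with imiquimod, against 0.156, 0.925 and 0.410 CPM with vehicle (4.62), Pdk1, an inhibitor gene of pyruvate dehydrogenase, changed by -2.71 and the ATP citrate lyase gene Acly by 1.04. Nucleotide and polyamine synthesis genes were at least 2-fold higher in 12 of 37 (32.4%) and lower in 1 (2.70%), with a median of 0.41. Nampt, the rate-limiting gene of NAD salvage, had 540, 567 and 544 CPM with imiquimod, against 74.1, 71.5 and 72.6 CPM with vehicle (2.92), Dck, a deoxynucleoside kinase gene, changed by 2.84 and the purine synthesis gene Paics by -0.98. Among 38 NRF2 target, metallothionein and iron genes, 13 were at least 2-fold higher (34.2%) and 9 lower (23.7%), with a median of 0.20. The glutathione reductase gene Gsr had 293, 317 and 305 CPM with imiquimod, against 31.4, 32.2 and 31.6 CPM with vehicle (3.26).

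Autophagy genes were called lower in 26 of 40 and higher in 8, where 39.2% and 37.7% of all genes were called lower and higher. Of 55 lysosome, cathepsin and V-ATPase genes, 6 were at least 2-fold higher (10.9%) and 12 at least 2-fold lower (21.8%), near the shares over all genes, with a median of 0.19. The lysosomal hydrolase genes Gusb (-2.20), Manba (-2.11) and Ppt1 (-2.23) were lower. Of 40 autophagy genes, 5 were at least 2-fold higher (12.5%) and 10 at least 2-fold lower (25%), also near the shares over all genes, with a median of -0.58. The receptor gene Optn had 63.0, 66.9 and 67.1 CPM with imiquimod, against 3.66, 3.86 and 4.27 CPM with vehicle (4.06), the interferon-induced GTPase gene Irgm1 changed by 2.90 and the receptor gene Sqstm1 by 2.01, with 17.3% of its exons overlapped on the other strand. Atg16l2 fell to 6.47, 6.87 and 5.11 CPM with imiquimod, against 64.2, 62.2 and 60.4 CPM with vehicle (-3.34).

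Chromatin and transcription factor families moved less uniformly. Of 47 histone and DNA methylation enzyme genes, 7 were at least 2-fold higher (14.9%) and 6 lower (12.8%), with a median of 0.04. Both shares were below those over all genes (16.2% and 19.3%). The H3K27 demethylase gene Kdm6b had 276, 264 and 287 CPM with imiquimod, against 42.6, 39.0 and 44.6 CPM with vehicle (2.71), and Kdm7a changed by -2.28. Histone deacetylase and sirtuin genes were at least 2-fold lower in 8 of 18 (44.4%) and higher in 1, with a median of -0.84. Sirt3, the main mitochondrial deacetylase gene, had 4.80, 3.0 and 4.03 CPM with imiquimod, against 53.3, 49.2 and 50.1 CPM with vehicle (-3.69), with 12.7% of its exons overlapped on the other strand, and Hdac9 changed by -2.84. Zinc finger genes named Zfp were at least 2-fold lower in 66 of 297 (22.2%) and at least 2-fold higher in 16 (5.39%), with a median of -0.33. Against that trend, Zfp811 had 29.5, 27.2 and 27.2 CPM with imiquimod, against 0.311, 0.463 and 0.821 CPM with vehicle (5.70), and Zfp599 had 248, 264 and 263 CPM with imiquimod, against 16.6, 15.3 and 17.4 CPM with vehicle (3.97). DNA repair genes were at least 2-fold lower in 9 of 53 (16.98%) and at least 2-fold higher in 3 (5.66%), with a median of -0.11. These shares lay below the 19.3% lower and 16.2% higher over all genes. Changes in the DNA repair list ran from -2.57 to 1.18, with Ercc5 at -1.85 and Xpc at -1.76 among the lowered members. Of 41 TRIM genes, 13 were at least 2-fold higher (31.7%) and 8 lower (19.5%), with Trim30d at 3.67 and a median of 0.06.

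The last pathways had members with opposite and large changes. Among 42 Notch, TGF-beta and Wnt genes, 11 were at least 2-fold higher (26.2%) and 9 lower (21.4%), with a median of -0.02. Over all genes the shares were 16.2% and 19.3%. Dll4, a Notch ligand gene, had 348, 359 and 372 CPM with imiquimod, against 4.67, 6.25 and 4.68 CPM with vehicle (6.11, SE 0.07, edgeR adjusted p = 1.14e-76), and the ligand gene Dll1 changed by 4.45, with 20.6% of its exons overlapped on the other strand. The Wnt effector gene Tcf7l2 had 162, 157 and 162 CPM with imiquimod, against 16.3, 19.3 and 17.2 CPM with vehicle (3.19). Of 21 circadian clock genes, 4 were at least 2-fold higher (19.0%) and 2 lower (9.52%), with a median of 0.01. The repressor gene Bhlhe40 had 426, 426 and 440 CPM with imiquimod, against 78.4, 78.4 and 81.6 CPM with vehicle (2.44), Nfil3 changed by 3.29 and Dbp, which NFIL3 opposes, by -1.53, with 18% of its exons overlapped on the other strand.

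**Figure D4:**
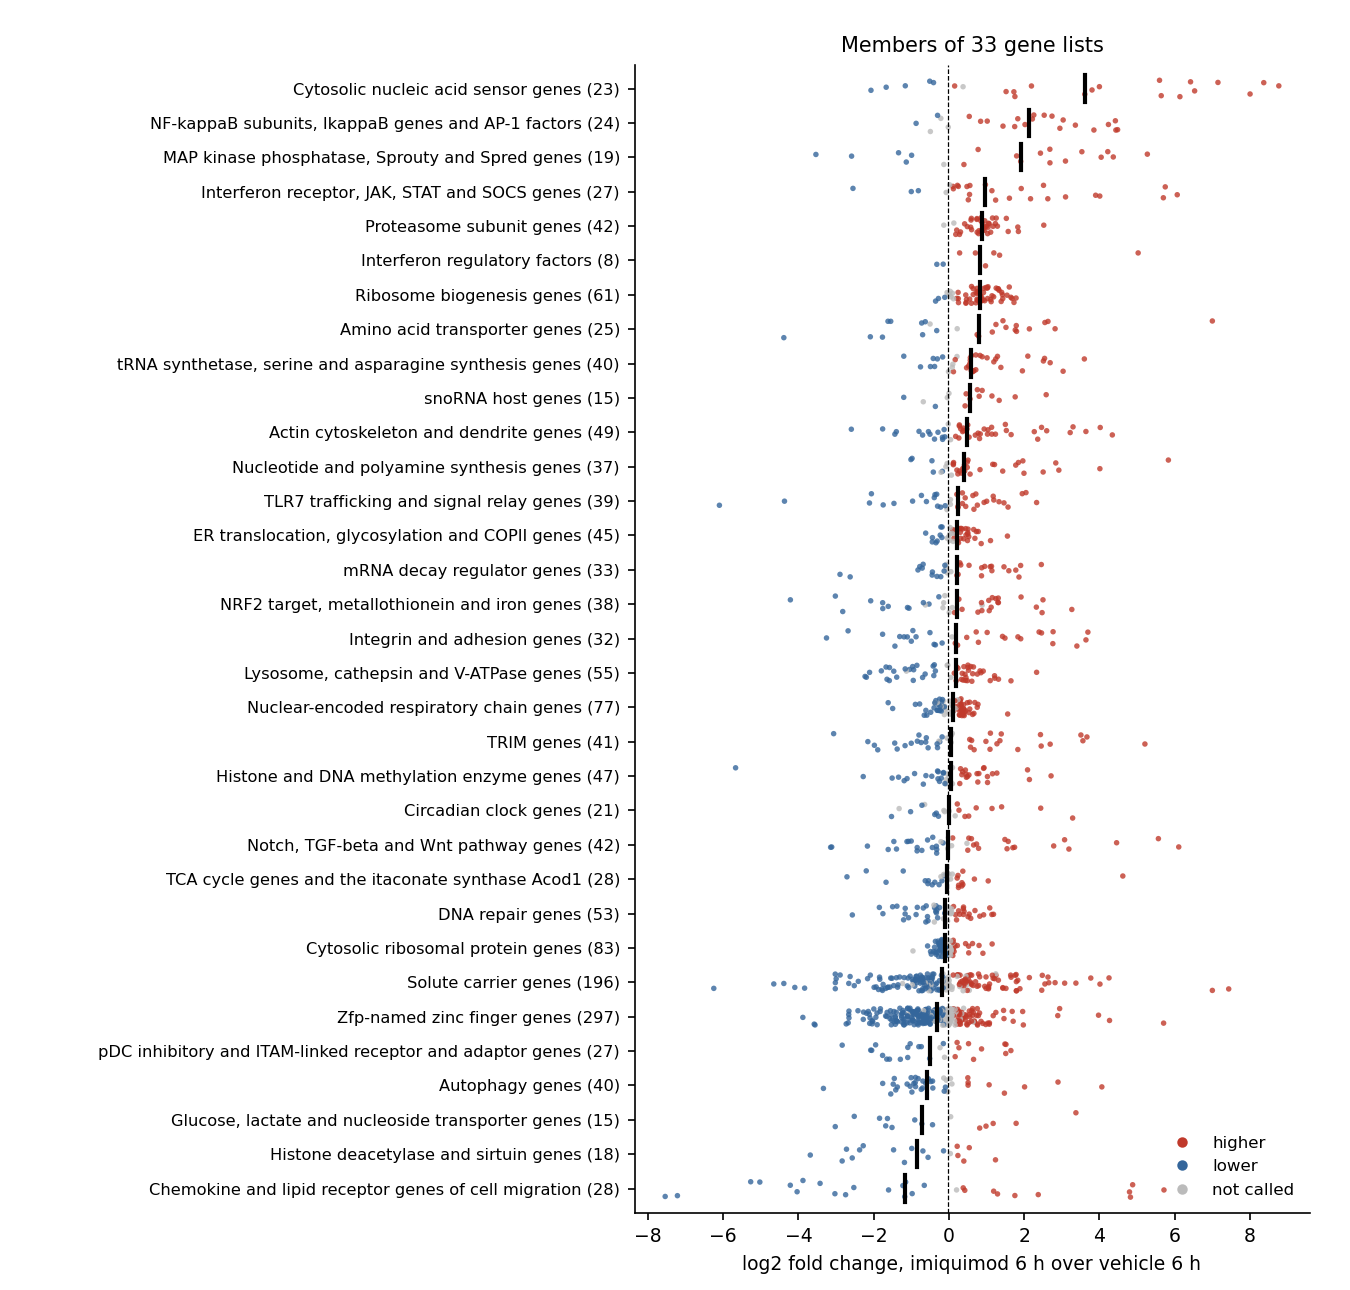
Log2 fold change, imiquimod 6 h over vehicle 6 h (x axis), of each tested member of 33 gene lists, ordered by list median, with the number tested in brackets. Red points were called higher, blue points lower and grey points not called, black bars mark list medians and the dashed line the median over all genes (-0.04). Cytosolic nucleic acid sensor genes (median 3.61) are at the top and receptor genes of cell migration (-1.16) at the bottom, and most lists hold members on both sides of 0.

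Several of the genes that moved together were neighbours on a chromosome. Among 11099 tested protein-coding genes placed on GENCODE M21, 40 runs of at least 4 consecutive genes were all at least 2-fold higher (201 genes) and 29 runs all at least 2-fold lower (134 genes). Of the same 11099 genes, 1803 were at least 2-fold higher and 2061 at least 2-fold lower, so some runs would arise without any clustering. Whether the runs exceed that number was not tested. The longest run, 12 higher genes on chromosome 1 from 173468485 to 174044411 (mm10), held the Ifi200 family of DNA sensor genes, with log2 fold changes of 1.37 to 8.37. A run of 8 on chromosome 11 (82900768 to 83215154) held the Schlafen genes, with changes of 1.01 to 11.93, and 8 genes on chromosome 7 (104299894 to 104647305) included Trim12 and Trim30 members, at 1.09 to 6.30. On chromosome 10 (75771230 to 75895941) 7 higher genes included the glutathione transferases Gstt1 to Gstt4, Mif and Derl3, at 2.16 to 6.89. Downward, 8 genes on chromosome 8 (3671188 to 3954746) held Fcer2a, Clec4g and the Cd209 lectin genes, at -7.22 to -2.37. Another 6 on chromosome 6 (52169062 to 52231089) were the homeobox genes Hoxa3 to Hoxa9, at -3.56 to -1.98. The ends 11.93 and -7.22 each belong to a gene with 0 counts in a group, so they are fitted values and not measured folds. Clec4g, at -7.22, had 0 counts with imiquimod and 59 with vehicle, at least 15.9-fold lower against a floor of 3 counts. Many of the genes in runs belong to families of similar sequence, so part of their reads may be divided uncertainly, and neighbours that share reads are not independent. Genes at least 16-fold higher also spanned less of the genome (median 15 kb) than those at least 16-fold lower (35.4 kb) or all protein-coding genes tested (23.9 kb).

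Primary transcripts of 3 microRNA genes were raised, chosen after their values were seen. The libraries measure the host RNA and not the mature microRNA. The mature sequences are shown because they are what these hosts encode, from RefSeq on GRCm38.p6, 5′ to 3′, with the seed (bases 2 to 8) in capitals, for miR-155-5p at chr16:84714143-84714165 (plus strand), miR-22-3p at chr11:75463772-75463793 (plus) and miR-17-5p at chr14:115043684-115043706 (plus). The 3 seeds differ from each other.
mmu-miR-155-5p: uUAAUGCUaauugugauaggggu
mmu-miR-22-3p: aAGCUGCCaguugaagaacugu
mmu-miR-17-5p: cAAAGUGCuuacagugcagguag

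Mir155hg, host of the microRNA best known from activated immune cells, had 257, 256 and 261 CPM with imiquimod, against 3.11, 1.93 and 2.30 CPM with vehicle (6.71, SE 0.08, edgeR adjusted p = 3.41e-73). Mir22hg had 69.6, 73.1 and 72.7 CPM with imiquimod, against 7.16, 6.55 and 6.48 CPM with vehicle (3.41), and Mir17hg, the host of the miR-17-92 cluster, 49.5, 49.9 and 51.2 CPM with imiquimod, against 16.8, 18.4 and 15 CPM with vehicle (1.58).

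Many 6 h effects differed from those at 16 h. The difference between the imiquimod effects, each against the vehicle of its own time and with no library in common, was called in 8468 genes (56.9%) in edgeR. Hspa1a and Hspa1b, the inducible chaperone genes of heat shock, had a large effect at 6 h and a small one at 16 h. Hspa1b had 138, 140 and 142 CPM with imiquimod, against 5.52, 5.71 and 3.86 CPM with vehicle, and its effect was 4.79 at 6 h and 0.18 at 16 h, where it averaged 5.65 CPM with imiquimod and 4.96 CPM with vehicle. The pair shares 54.2% and 55.8% of windows with other transcripts, so that reads of Hspa1a and Hspa1b are uncertain in their division. Notch3, a Notch receptor gene, had 81.2, 83.1 and 83.8 CPM with imiquimod, against 2.26, 1.77 and 1.15 CPM with vehicle, and its effect was 5.57 at 6 h and 0.90 at 16 h, a difference of -4.67 (SE 0.33, edgeR adjusted p = 7.22e-22). Hdc, the histamine-forming enzyme gene, had 22.3, 20.2 and 22.8 CPM with imiquimod, against 0.0778, 0.0771 and 0.246 CPM with vehicle (7.26 at 6 h, 1.65 at 16 h). Hdc is also on the basophil and mast cell list, whose sums are given above, and most of that sum came from Kit, with a mean of 63.3 CPM with imiquimod and 119 CPM with vehicle. Of its low members, Mcpt8 had 13 counts with imiquimod and 6 with vehicle, and Cd200r3 24 with imiquimod and 7 with vehicle. Gata2 had 11 with imiquimod and 3 with vehicle, and Cpa3 6 with imiquimod and 11 with vehicle. Ms4a2 had 4 with imiquimod and 10 with vehicle, and Fcer1a 0 with imiquimod and 1 with vehicle. Prss34, with 37 counts with imiquimod and 29 with vehicle, was not called. The part of such cells in the change of Hdc was not tested. Gbp2, an interferon-induced GTPase gene, had 703, 710 and 731 CPM with imiquimod, against 3.11, 2.85 and 3.28 CPM with vehicle (7.85 at 6 h, 3.46 at 16 h), and the glutamate receptor subunit gene Grin2c changed by 5.54 at 6 h and 0.61 at 16 h. At 16 h Gbp2 averaged 273 CPM with imiquimod and 24.8 CPM with vehicle, and Grin2c 9.66 CPM with imiquimod and 6.36 CPM with vehicle. The vehicle levels of both were thus also higher at 16 h than at 6 h, where Gbp2 averaged 3.08 CPM and Grin2c 1.16 CPM.

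Among lowered genes whose effect shrank by 16 h, the differences were smaller than among the raised genes named. Idh2, the mitochondrial isocitrate dehydrogenase gene, had 11.6, 10.7 and 11.8 CPM with imiquimod, against 48.1, 53.6 and 55.0 CPM with vehicle, an effect of -2.20 at 6 h and 0.07 at 16 h, with a difference of 2.27 (SE 0.10, edgeR adjusted p = 7.98e-34). Pik3cg, the gene of the gamma catalytic subunit of phosphoinositide kinase, had 14.8, 12.4 and 14.5 CPM with imiquimod, against 149, 138 and 153 CPM with vehicle (-3.40 at 6 h, -1.53 at 16 h). Emb, a chaperone gene of lactate transporters, changed by -2.15 at 6 h and -0.17 at 16 h. The purine gene Paics was -0.98 at 6 h and 0.63 at 16 h (difference 1.61, SE 0.07, edgeR adjusted p = 7.51e-36). Of the interferon regulatory factors, Irf5 was 1.19 at 6 h and -0.02 at 16 h (difference -1.21, SE 0.05, edgeR adjusted p = 4.56e-34) and Irf4 0.70 at 6 h and -0.22 at 16 h (difference -0.92, SE 0.06, edgeR adjusted p = 2.97e-24).

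**Figure D5:**
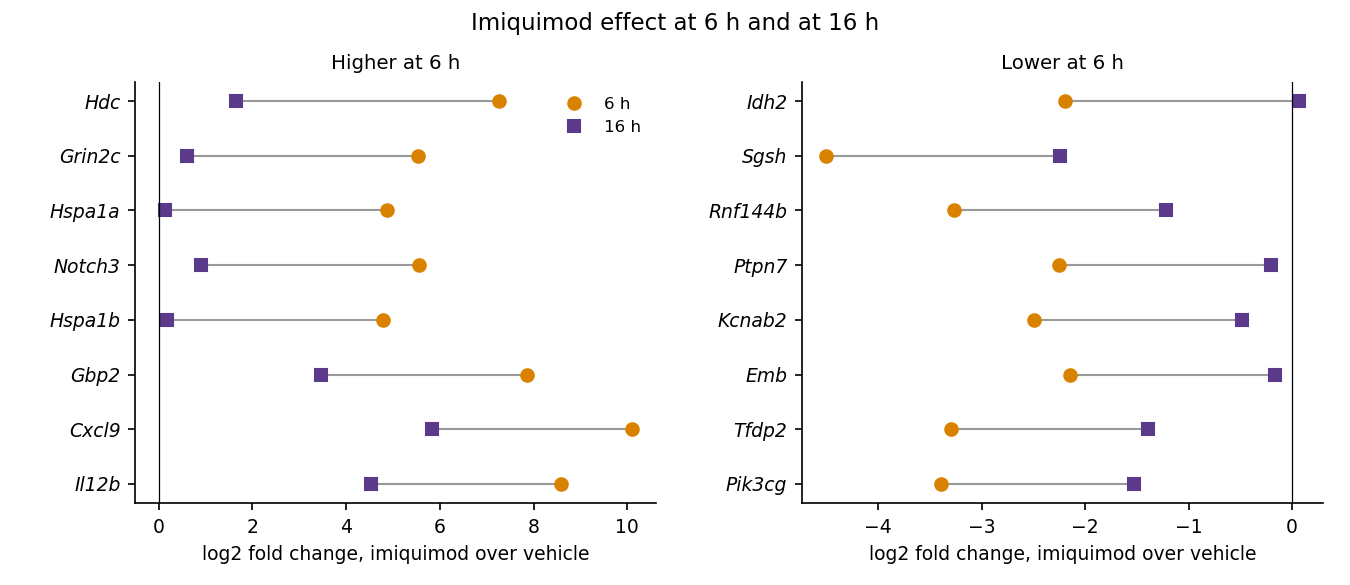
Log2 fold change, imiquimod over vehicle (x axis), at 6 h (orange circles) and at 16 h (purple squares) for the 8 raised genes (left) and the 8 lowered genes (right) whose effect shrank most between the times. Hspa1a and Hspa1b return near 0, whereas Cxcl9 and Il12b stay above 4 at 16 h, and among lowered genes Idh2 returns to 0.07.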

How the data were processed

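Total RNA was depleted of ribosomal RNA, made into directional libraries and sequenced as 75-base read pairs, per the labels' protocols. The authors' deposited table holds raw read counts per gene and library. STAR and the mm10 build are named in the submitters' processing notes; their versions are not given in the sources used here, nor are the counting program, its strand setting and the annotation release.

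Genes with enough counts by group were kept (filterByExpr, minimum count 10), scaled by TMM and fitted with all 18 libraries in edgeR 4.0.16 (quasi-likelihood, robust, R 4.3.3), since the groups then share an estimate of spread. Contrasts were imiquimod over vehicle at 6 h, at 16 h, and their difference. P-values were adjusted by Benjamini and Hochberg over all genes tested, and the script was tested on simulated data. CPM values are scaled to the TMM-adjusted library total. Each SE was computed as the size of the log2 fold change over the square root of edgeR's F statistic, and is approximate. No pair of replicates agreed within sampling noise, so none was merged.

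Alternatives were DESeq2 1.42.0 (its test and its size factors), library totals, other filters, glmTreat, a replicate block, the 6 h libraries alone, leaving out each library, and a 4-fold limit for promoters. Named genes are the 10 largest gains and losses in CPM; the 16 largest folds each way at a mean of at least 10 CPM; the 8 highest genes at 0 in the other group each way; the 8 and 8 genes whose effect shrank most by 16 h; up to 4 leading and 2 opposite members of each list; and every interferon regulatory factor. Not every pick is named. The members, lists and rules were chosen with earlier results of these data known. Some picked genes are not reported here. Exon overlap and shared windows come from GENCODE M21, promoters and microRNAs from RefSeq.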

Additional observations from a re-analysis of the deposited data

Results flagged for a closer look

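The imiquimod effect differed between 16 h and 6 h, by edgeR's test of the difference itself, in 16 genes picked for the size of that difference. Values are the log2 effect at 16 h minus that at 6 h. Among genes raised at 6 h it was -5.61 for Hdc, -4.94 for Grin2c, -4.73 for Hspa1a, -4.67 for Notch3, -4.61 for Hspa1b, -4.40 for Gbp2, -4.28 for the chemokine gene Cxcl9 and -4.06 for the interleukin subunit gene Il12b. Among genes lowered at 6 h it was 2.27 for Idh2, 2.26 for the lysosomal sulfatase gene Sgsh, 2.06 for the ubiquitin ligase gene Rnf144b, 2.04 for the phosphatase gene Ptpn7, 2.01 for the potassium channel subunit gene Kcnab2, 1.98 for Emb, 1.91 for the E2F partner gene Tfdp2 and 1.87 for Pik3cg. For Sgsh, 21.6% of exons overlap a gene on the other strand. The vehicle level of Il12b rose from 2.33 CPM at 6 h to 13.6 CPM at 16 h, while its imiquimod level went from 900 CPM to 313 CPM. The vehicle level of Ptpn7 fell from 17.4 CPM to 9.53 CPM, while its imiquimod level went from 3.65 CPM to 8.28 CPM. The differences of both genes thus include a change of the vehicle, as for Gbp2 and Grin2c.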

How the results depend on the processing

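Under library totals 3704 genes were higher, against 5602 under TMM, and among the 262 genes picked by the naming rules or added to them 2 changed sign, Irf2 at -0.068 and the pDC factor gene Tcf4 at -0.048 (0.30 under TMM). Under these totals 3 others of the 262 kept their sign but were no longer called, among them Ighm at 0.044 (0.40 under TMM). No other alternative moved a count over all genes by 1.5 times. Leaving out each library in turn gave 5398 to 5535 genes higher, 5618 to 5902 lower, 2385 to 2467 at least 2-fold higher, 2843 to 2981 at least 2-fold lower and 8109 to 8517 with a difference between the times. DESeq2 gave 5538 higher and 5393 lower, and edgeR's glmTreat test against a 2-fold change 1930 higher and 2051 lower. Of 132 counts over lists, 46 moved by over 1.5 times under library totals, 6 in DESeq2's test, 3 with its size factors and 1 with no filter, and 12 of the values with a library left out did. List medians, taken relative to all genes, moved by more than the replicate spread in 26 of 33 lists with no filter, 8 with the 6 h libraries alone, 2 with the 1 CPM filter and 40 of the values with a library left out. The replicate numbers did not pair the samples: deviations of same-numbered libraries correlated at 0.0476, -0.0390 and 0.0786, and with the replicate block 5579 genes were higher and 5821 lower. With 3 libraries per group and 11673965 to 12576527 counts each, genes at a few counts have no reliable fold, and read division within gene families was not resolved.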
